A study of Mus musculus with 6 samples.

Results

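Genes for the lipid droplet coat and for lipolysis were examined in livers of HFD-fed mice with or without esculetin. These 10 genes, out of 55357 gene rows in the deposited count table, were chosen by name and fall into 4 roles. The droplet coat is represented by the perilipins Plin2, Plin3, Plin4 and Plin5, and the CIDE proteins by Cideb and Cidec. The lipases are Pnpla2 and Lipe, and the lipase inhibitors are G0s2 and Hilpda. Livers came from WT male C57BL6/J mice, 8 to 9 weeks old, which were gavaged daily for 7 days. Feeding was the same in all mice, with 4 days of a control diet (10% kcal fat) followed by 3 days of a high-fat diet (HFD, 60% kcal fat), so that every library is from an HFD-fed liver. The vehicle group received 2.5% Tween-80 and the treated group received esculetin, a coumarin derivative. The sample names give the esculetin dose as 180 mg/kg/d while the treatment field gives 90 mg/kg/d, so no dose is attached to the esculetin group. Each group has 3 libraries, and each library was made from 2 pooled livers. No chow-fed livers were analysed here, so the response of these genes to the diet itself could not be examined.

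Hepatocytes store triglyceride in droplets that are bounded by a phospholipid monolayer and coated by perilipins. PNPLA2 (adipose triglyceride lipase) removes the first fatty acid, hormone-sensitive lipase (Lipe) acts mainly on the resulting diglyceride, and the fatty acids released can be oxidized, signal through PPAR alpha or be built into lipoproteins. G0S2 and HILPDA bind and inhibit PNPLA2, and CIDE proteins enlarge droplets by moving lipid between them or, for CIDEB, also support the lipidation of secreted lipoproteins. Many of these genes are known in liver as targets of PPAR alpha, the nuclear receptor for fatty acids, and Hilpda is known as a target of hypoxia-inducible factors.

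Libraries held 27957713 to 34920922 counts, with the 3 esculetin libraries above the 3 vehicle libraries. The groups were also apart in the share of mitochondrial counts (7.31 to 7.62% with vehicle and 6.87 to 7.26% with esculetin) and in that of the 20 most abundant genes (25.5 to 27.1% and 24.1 to 25.4%). The part of these shares in the results was not tested. For the totals, a fit with all libraries thinned to the smallest total is given in the closing part. At these depths, 3 counts correspond to 0.0865 to 0.109 CPM (counts per 1e+06 counts of a library, after TMM normalization), and these floors cover counting error only. Hepatocyte transcripts were abundant in all libraries, with Alb at 60450 CPM in the vehicle and 58357 CPM in the esculetin group. Of the fat cell markers, Plin1, Adipoq, Lep, Retn, Tshr and Slc7a10 were at or near 0. Plin1, the coat protein of fat cells, had 5 counts in all 6 libraries together, all of them in 1 esculetin library. Adipoq had 6 counts, also in esculetin libraries alone, and Lep, Retn, Tshr and Slc7a10 had none. The sum over the 9 fat cell markers was 12.6 to 16.7 CPM in the vehicle and 14.3 to 17.2 CPM in the esculetin libraries. Most of it was Fabp4, followed by Adrb3 with 3.89 CPM in the vehicle and 3.44 CPM in the esculetin group. Of the 3 fat cell markers that could be tested, Cfd passed the thresholds given below as higher (0.286 CPM with vehicle and 0.962 CPM with esculetin), where 1.37% of all genes did. Its part in the results was not tested.

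All 10 genes had enough counts to be compared. Calls used the study's thresholds, fold changes of more than 1.5 together with unadjusted p-values below 0.05, here from edgeR's quasi-likelihood test. None of the 10 genes (0) passed both, where 3.13% of the 14433 genes tested did. An unadjusted p-value under 0.05 was reached by 3 genes, Plin5, Plin4 and Pnpla2, all of them with a higher mean in the esculetin group, where 11.9% of all genes tested reached it 6.53% as higher and 5.32% as lower. After Benjamini-Hochberg adjustment over all genes, the smallest adjusted p-value of the 10 was 0.225 (edgeR's quasi-likelihood test), so that 0 passed at 0.05, where 0.0416% of all genes did. With DESeq2 and with limma-voom, the number with an adjusted p-value under 0.05 was also 0, and the number with an unadjusted one was again 3. Over all genes, DESeq2 gave 193 adjusted p-values under 0.05, limma-voom 5 and edgeR 6, and the adjusted p-value of Plin5 was 0.0523 with DESeq2. In the same 3 genes every esculetin library lay above every vehicle library, a pattern shown by 9.2% of all genes tested, and 0 showed the opposite pattern, beside 8.24%. The groups overlapped in the other 7. The log2 fold change was above 0 in 4 of the 10 genes, where 48.5% of all genes tested were above 0. The median over the 10 was -0.029, beside -0.0080 over all genes. In bulk liver, a change in RNA per cell and a change in the share of cells carrying it cannot be told apart.

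**Figure D1:**
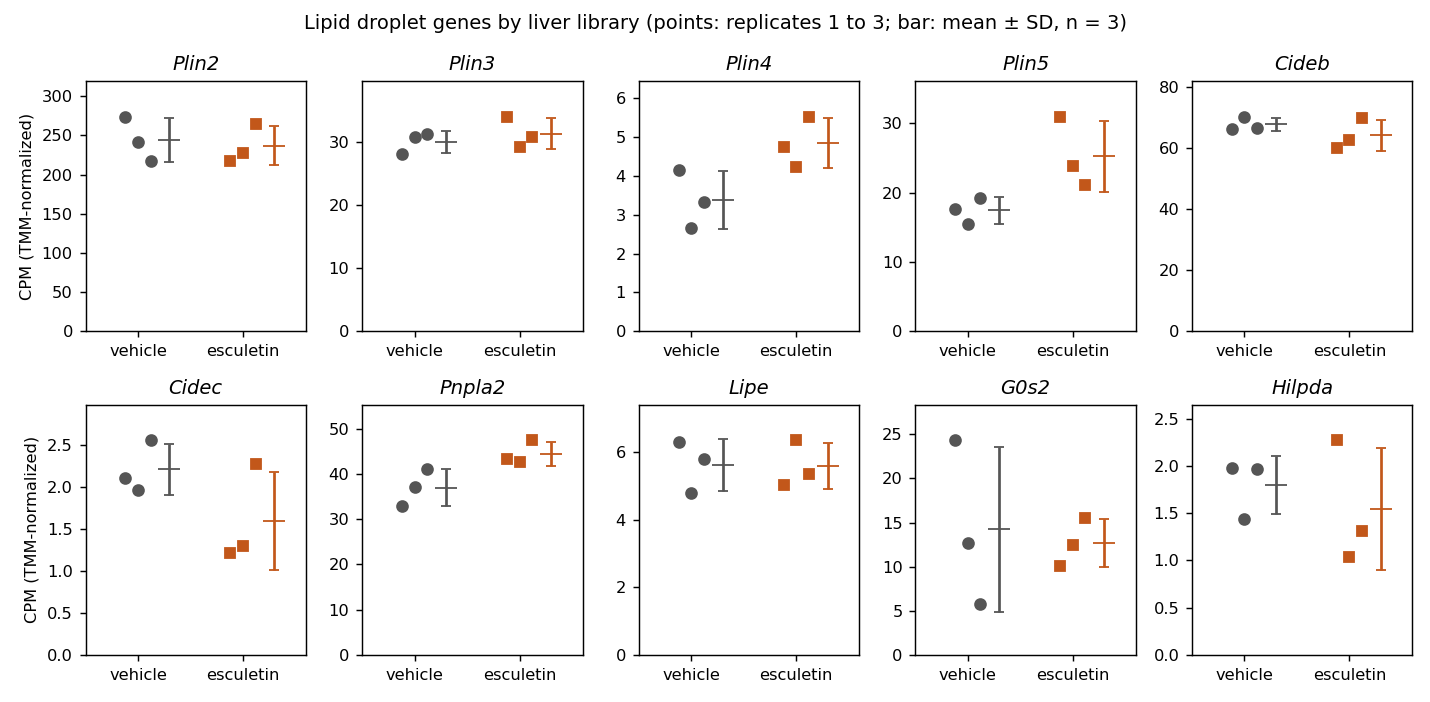
Normalized counts (CPM, y axis from 0) of each gene in the 3 vehicle (grey circles) and 3 esculetin (orange squares) liver libraries, drawn in the order of the replicate numbers, with the mean ± SD beside them. The groups part in Plin4, Plin5 and Pnpla2 and overlap in the other 7 genes, and G0s2 shows a wide spread among vehicle libraries, from 5.73 to 24.3 CPM.

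The promoters of the 3 genes with an unadjusted p-value under 0.05 are shown here beside that of Plin2, the most abundant coat gene, to set out what these start sites share. Each is the 250 bases before the start of the canonical GENCODE transcript, read from GRCm39, 5′ to 3′ on the strand of the gene. Capitals mark AGGTCA (the half-site of nuclear receptors such as PPAR alpha), ACGTG and GCGTG (cores of hypoxia response elements) on either strand. Plin5 lies at chr17:56424544-56424793 and Plin4 at chr17:56416932-56417181, both on the minus strand. Pnpla2 lies at chr7:141034813-141035062 on the plus strand and Plin2 at chr4:86588460-86588709 on the minus strand.
Plin5: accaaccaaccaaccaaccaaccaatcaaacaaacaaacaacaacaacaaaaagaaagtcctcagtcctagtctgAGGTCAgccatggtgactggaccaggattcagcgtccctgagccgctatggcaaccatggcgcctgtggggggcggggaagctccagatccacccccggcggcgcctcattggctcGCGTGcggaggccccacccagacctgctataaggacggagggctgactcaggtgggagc
Plin4: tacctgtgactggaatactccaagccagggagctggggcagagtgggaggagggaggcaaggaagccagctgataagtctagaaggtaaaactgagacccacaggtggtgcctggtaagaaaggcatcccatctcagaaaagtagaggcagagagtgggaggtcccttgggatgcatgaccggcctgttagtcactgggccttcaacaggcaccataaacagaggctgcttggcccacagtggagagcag
Pnpla2: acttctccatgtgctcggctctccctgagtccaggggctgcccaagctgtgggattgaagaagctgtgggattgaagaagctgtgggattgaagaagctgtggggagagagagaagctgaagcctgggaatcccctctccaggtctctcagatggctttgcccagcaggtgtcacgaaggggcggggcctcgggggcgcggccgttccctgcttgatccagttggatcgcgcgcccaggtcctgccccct
Plin2: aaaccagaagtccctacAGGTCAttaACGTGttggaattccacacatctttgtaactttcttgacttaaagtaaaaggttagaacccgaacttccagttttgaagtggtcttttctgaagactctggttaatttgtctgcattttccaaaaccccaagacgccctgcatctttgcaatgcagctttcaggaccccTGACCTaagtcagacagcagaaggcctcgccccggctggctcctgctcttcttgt

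The half-site AGGTCA was present once before Plin5, starting 175 bases upstream of the start, and at 2 places before Plin2, at 233 and 55 bases upstream. It was absent from these windows of Plin4 and Pnpla2. Of the 10 promoters, 2 held it, beside 13.1% of 21627 promoters of protein-coding genes. The direct repeat of this half-site with 1 base between its copies occurred in 0 of the 10 and in 0.037% of all promoters. ACGTG was found in 1 of the 10 (Plin2), beside 17.0% of all promoters, and GCGTG in 2 (Plin5 and G0s2), beside 31.2%. TTGCNNAA, a core recognized by C/EBP factors, and GTAAACA, that of FoxO factors, were each found in 0 of the 10, beside 9.37% and 2.72% of all promoters. CANNTG, the E-box, was found in 8 of the 10 and in 64.8% of all promoters, and it is not in capitals above. An ACGTG core can lie within a CANNTG match, and a GCGTG core cannot. These letters say nothing about binding, and sites further from the start were not searched.

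Plin5 encodes a perilipin of oxidative tissues that ties droplets to mitochondria and binds PNPLA2 and its activator ABHD5. Plin5 had 17.6, 15.5 and 19.3 CPM in vehicle replicates 1 to 3 and 31.0, 23.8 and 21.1 CPM in esculetin replicates 1 to 3. All esculetin libraries were above all vehicle libraries, with esculetin replicate 1 highest and esculetin replicate 3 closest to the vehicle range. The means were 17.5 ± 1.92 and 25.3 ± 5.12 CPM (SD, n = 3 each). The fold change was 1.45 (95% confidence interval 1.15 to 1.82), or 0.53 ± 0.15 (standard error) on the log2 scale, with an unadjusted p = 0.00486 and an adjusted p = 0.225 by the same edgeR test. Its unadjusted p-value remained under 0.05 in each of the 6 fits that left out 1 library, at most 0.0237, with log2 fold changes from 0.36 to 0.65. It passed 1.5-fold when vehicle replicate 3 (0.61) or esculetin replicate 3 (0.65) was left out. Without any filter on low counts, which brought 24638 genes into the fit, the adjusted p-value of Plin5 was 0.00229, and 477 genes then had an adjusted p-value under 0.05.

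Plin4 encodes a perilipin with a long repetitive amphipathic stretch that is best known from fat and muscle. Plin4 had 4.15, 2.67 and 3.32 CPM in the vehicle and 4.76, 4.24 and 5.52 CPM in the esculetin libraries. The groups did not overlap, but vehicle replicate 1 was close to esculetin replicate 2. The means were 3.38 ± 0.744 and 4.84 ± 0.647 CPM (SD, n = 3 each), a fold change of 1.43 (95% confidence interval 1.04 to 1.97, unadjusted p = 0.0304 and adjusted p = 0.365 by edgeR). This rests on 87 to 185 counts per library. Plin4 lost its unadjusted p-value under 0.05 in 4 of the 6 fits that left out 1 library, those without vehicle replicates 2 or 3 or esculetin replicates 1 or 3, with p-values from 0.0517 to 0.107. It passed 1.5-fold and the p-value threshold without vehicle replicate 1 (log2 fold change 0.70) or esculetin replicate 2 (0.61). By exon overlap in the GENCODE annotation, 39.1% of the annotated exon bases of Plin4 are shared with Hdgfl2 on the opposite strand, and the strand setting of the counting is not given in the sources used here. Hdgfl2 had a log2 fold change of 0.14 (standard error 0.14, adjusted p = 0.729, same test).

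Plin2 (adipophilin) is the general coat protein of hepatocyte droplets, and its protein is stabilized by lipid. Plin2 had 274, 242 and 218 CPM in the vehicle and 218, 228 and 265 CPM in the esculetin libraries. The groups lay over the same range. The means were 245 ± 28.1 and 237 ± 24.9 CPM (SD, n = 3 each), a fold change of 0.969 with a 95% confidence interval from 0.821 to 1.14, which does not reach 1.5-fold in either direction (adjusted p = 0.907, edgeR's quasi-likelihood test). Plin3, a perilipin that moves from the cytosol onto nascent droplets, had 28.1, 30.8 and 31.3 CPM with vehicle and 34.0, 29.2 and 30.7 CPM with esculetin. Its groups overlapped as well, with a fold change of 1.04 (95% confidence interval 0.905 to 1.20). The intervals of Plin2 and Plin3 thus lay within 1.5-fold of no change, and those of Plin4 and Plin5 lay above 1 and reached past 1.5. Whether Plin5 changed relative to Plin2 was compared within each library. The ratio of Plin2 to Plin5 per kilobase was 17.0, 17.2 and 12.4 in the vehicle and 7.71, 10.5 and 13.8 in the esculetin libraries. These ratios overlapped through esculetin replicate 3 (mean log2 difference -0.57, exact two-sided permutation test p = 0.2, adjusted p = 0.45 over 3 ratios), and 3 libraries against 3 cannot give a p-value under 0.1.

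Plin4, Plin5 and Plin3 lie in this order on chromosome 17 of GRCm39, all on the minus strand. Plin4 covers 56406617 to 56416931 and Plin5 covers 56418446 to 56424610, with 1514 bases between them, while Plin3 (56584218 to 56599873) is 160 kb from Plin5. Within 100 kb of this stretch, 16 genes were tested. None of these (0) passed both thresholds of the study, where 3.13% of all genes did. Of the 16, 4 had an unadjusted p-value under 0.05, all with a log2 fold change above 0, where 6.53% of all genes did (edgeR's quasi-likelihood test). The window was drawn around Plin4 and Plin5, which are among the 4, after their values were seen. The 4 were Plin4, Plin5, Mpnd (log2 fold change 0.27, adjusted p = 0.225) and Ticam1 (0.43, adjusted p = 0.389), where Mpnd and Ticam1 were picked for their p-values. The nearest gene upstream of Plin5, Lrg1, which encodes a secreted acute phase glycoprotein, had 233 ± 77.4 CPM with vehicle and 256 ± 77.6 CPM with esculetin (SD, n = 3 each). Its log2 fold change of 0.13 was smaller than its standard error of 0.26.

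**Figure D2:**
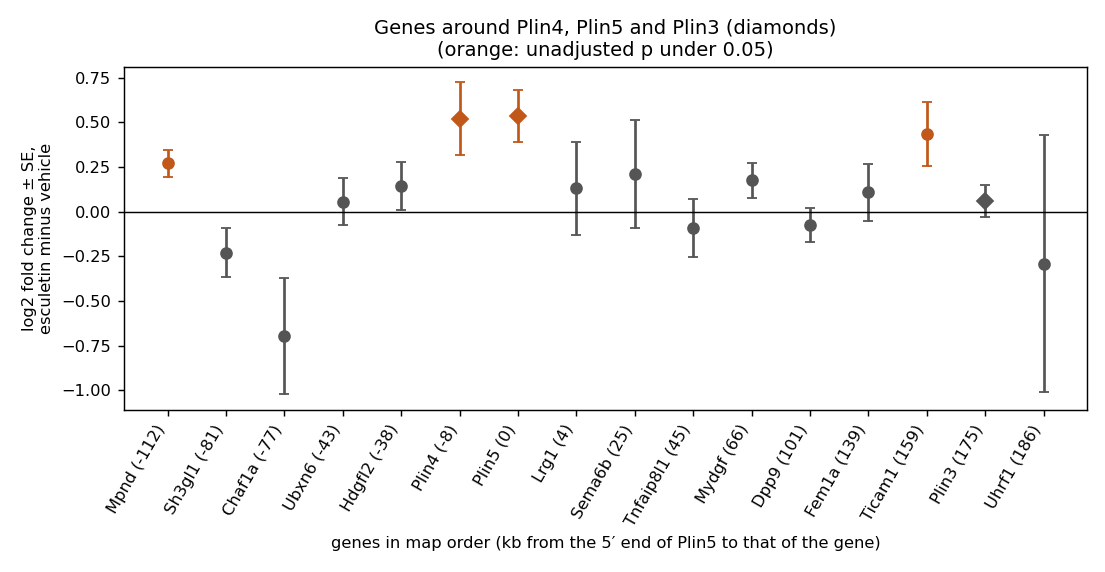
Log2 fold changes (esculetin minus vehicle, ± standard error) of the 16 genes tested around the perilipin genes of chromosome 17, in map order, with the distance in kb from the 5′ end of Plin5 to that of each gene in parentheses. Diamonds are perilipins and orange marks an unadjusted p-value under 0.05. Plin4 and Plin5 sit at 0.52 and 0.53, and Plin3 at 0.059, and of the genes between Plin5 and Plin3 only Mydgf (0.17) and Ticam1 (0.43) lie more than 1 standard error from 0.

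Pnpla2, the gene of adipose triglyceride lipase, had 32.9, 37.0 and 41.1 CPM in the vehicle and 43.2, 42.5 and 47.4 CPM in the esculetin libraries. The groups did not overlap, although vehicle replicate 3 came close to esculetin replicate 2. The means were 37.0 ± 4.09 and 44.4 ± 2.62 CPM (SD, n = 3 each), a fold change of 1.20 (95% confidence interval 1.03 to 1.40, unadjusted p = 0.0223 and adjusted p = 0.337 by edgeR). The upper bound is under 1.5-fold. The unadjusted p-value was under 0.05 in 3 of the 6 fits that left out 1 library and lay at 0.0930, 0.0512 and 0.0680 without vehicle replicate 1, vehicle replicate 2 and esculetin replicate 3, in that order. Of the exon bases of Pnpla2, 22.0% are shared with Gm72429, a lncRNA on the opposite strand that was not analysed here. Lipe, the gene of hormone-sensitive lipase, had 6.30, 4.79 and 5.80 CPM with vehicle and 5.04, 6.34 and 5.34 CPM with esculetin. Its groups lay over each other, with means of 5.63 ± 0.770 and 5.57 ± 0.682 CPM (SD, n = 3 each) and a fold change of 0.992 (95% confidence interval 0.765 to 1.29). The exons of Lipe share 22.3% of their bases with a lncRNA on the opposite strand, 4732471J01Rik, which was at 0.521 and 0.389 CPM in the groups.

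G0s2 encodes a small protein that blocks the catalytic domain of PNPLA2. It had 24.3, 12.6 and 5.73 CPM in the vehicle and 10.1, 12.5 and 15.5 CPM in the esculetin libraries. The vehicle libraries contained both the highest and the lowest value, and the esculetin libraries lay between them. The coefficient of variation was 66.0% among vehicle and 21.5% among esculetin libraries, the former being the largest of the 10 genes in either group. The fold change was therefore poorly determined, at 0.892 with a 95% confidence interval from 0.482 to 1.65 (adjusted p = 0.911, edgeR's quasi-likelihood test). Without vehicle replicate 1 the log2 fold change became 0.46, and without vehicle replicate 3 it became -0.54. The ratio of G0s2 to Pnpla2 per kilobase, inhibitor to lipase, was 0.898, 0.415 and 0.169 in the vehicle and 0.283, 0.357 and 0.398 in the esculetin libraries. The vehicle ratios again enclosed the esculetin ratios (mean log2 difference -0.22, exact two-sided permutation test p = 0.7, adjusted p = 0.7 over 3 ratios). Without vehicle replicate 1 this difference was 0.37 and without vehicle replicate 3 it was -0.83. Hilpda, which encodes a further inhibitor of PNPLA2, was at 1.97, 1.44 and 1.97 CPM with vehicle and at 2.27, 1.04 and 1.31 CPM with esculetin. These groups overlapped, esculetin replicate 1 being the highest of all 6 libraries, and the values rest on 36 to 73 counts per library. Its fold change was 0.858 (95% confidence interval 0.515 to 1.43), an interval that includes 1. The log2 fold change of Hilpda, -0.22 with all libraries, was -0.61 without esculetin replicate 1 and -0.00088 without esculetin replicate 2.

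Cideb, the CIDE gene of hepatocytes, had 66.4, 70.3 and 66.8 CPM in the vehicle and 60.2, 62.8 and 69.9 CPM in the esculetin libraries. Esculetin replicate 3 lay inside the vehicle range and the other two esculetin libraries just under it. The means were 67.9 ± 2.16 and 64.3 ± 5.05 CPM (SD, n = 3 each), and the interval of the fold change, 0.837 to 1.07 around 0.948, excludes 1.5-fold in either direction (adjusted p = 0.753 by edgeR). Of the exon bases of Cideb, 67.9% are shared with Nop9 on the opposite strand, so that its counts depend on how such reads were assigned. Nop9 had a log2 fold change of 0.20 (standard error 0.11, adjusted p = 0.545, same test). Opposite-strand overlaps covered 9.1% of the exon bases of Cidec, 2.6% of G0s2, 1.9% of Plin3 and 1.8% of Hilpda, and none was annotated for Plin2 and Plin5. Cidec, which promotes droplet fusion in fat cells and is known to be induced in fatty liver, had 2.11, 1.96 and 2.55 CPM with vehicle. With esculetin it had 1.21, 1.30 and 2.27 CPM. Esculetin replicates 1 and 2 were under all vehicle libraries and esculetin replicate 3 was among them. The fold change was 0.723 (95% confidence interval 0.458 to 1.14, unadjusted p = 0.144 and adjusted p = 0.577 by edgeR). Without esculetin replicate 3, the log2 fold change of Cidec was -0.81 (unadjusted p = 0.0192, adjusted p = 0.312, same test) and passed both thresholds of the study. The ratio of Cidec to Cideb per kilobase was 0.0155, 0.0136 and 0.0186 in the vehicle and 0.00983, 0.0101 and 0.0158 in the esculetin libraries. These ratios overlapped through the same library (exact two-sided permutation test p = 0.3, adjusted p = 0.45 over 3 ratios).

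**Figure D3:**
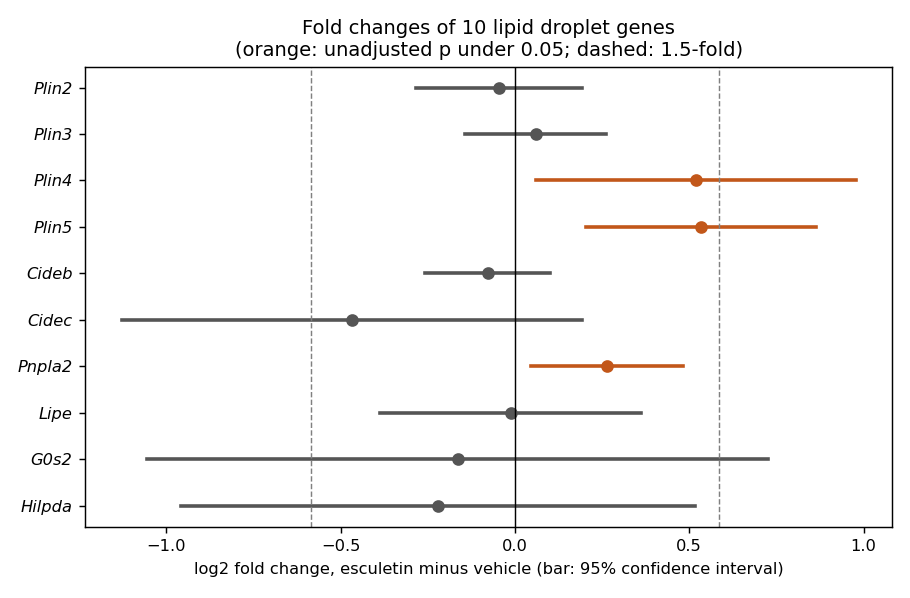
Log2 fold change (esculetin minus vehicle, x axis) of each gene from the edgeR fit, with its 95% confidence interval as a bar, orange where the unadjusted p-value is under 0.05, and dashed lines at 1.5-fold. The intervals of Plin4, Plin5 and Pnpla2 lie above 0, those of Plin2, Plin3, Cideb and Lipe lie within 1.5-fold, and those of Cidec, G0s2 and Hilpda cross the lower dashed line.

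Levels of different genes were compared as CPM per kilobase of the canonical transcript. Plin2 had the highest level of the 10 genes, with 119 ± 13.7 CPM per kilobase in the vehicle group (SD, n = 3), and accounted for 55.9% of the sum over the 10 genes there and 54.1% in the esculetin group. Cideb followed with 48.6 ± 1.55 and Pnpla2 with 17.9 ± 1.98 CPM per kilobase, and the ranges of these 3 genes did not overlap in either group. G0s2 (8.38 ± 5.53), Plin5 (7.77 ± 0.853) and Plin3 (7.61 ± 0.442 CPM per kilobase) came next, and neighbours among these overlapped in the vehicle group. In the esculetin group the level of Plin5, at 11.2 ± 2.28 CPM per kilobase, was above that of Plin3 (7.93 ± 0.615) in every library. Lipe was at 1.44 ± 0.196 CPM per kilobase in the vehicle group, apart from its neighbours on both sides. Hilpda (0.874 ± 0.149), Cidec (0.772 ± 0.107) and Plin4 (0.454 ± 0.0998 CPM per kilobase) were the lowest. Hilpda and Cidec overlapped there, whereas Plin4 was lower than Cidec in every vehicle library but overlapped with it in the esculetin libraries. Pnpla2 exceeded Lipe in level per kilobase in all 6 libraries. When the union of all annotated exons was used as the length, Cideb came before Plin2 and G0s2 came after Plin5 and Plin3, so these places, and the share of Plin2 in the sum, depend on the length chosen. The length of Plin2 is 2050 bases by its canonical transcript and 7684 bases by the union. The distance between Plin5 and Plin3 depends on the length in both groups as well. Plin5 has 2249 bases by the canonical transcript and 3064 by the union, and Plin3 has 3949 and 7295. Together the 10 genes took between 0.0388% and 0.0466% of the counts of a library, with vehicle replicate 3 lowest and vehicle replicate 1 highest.

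**Figure D4:**
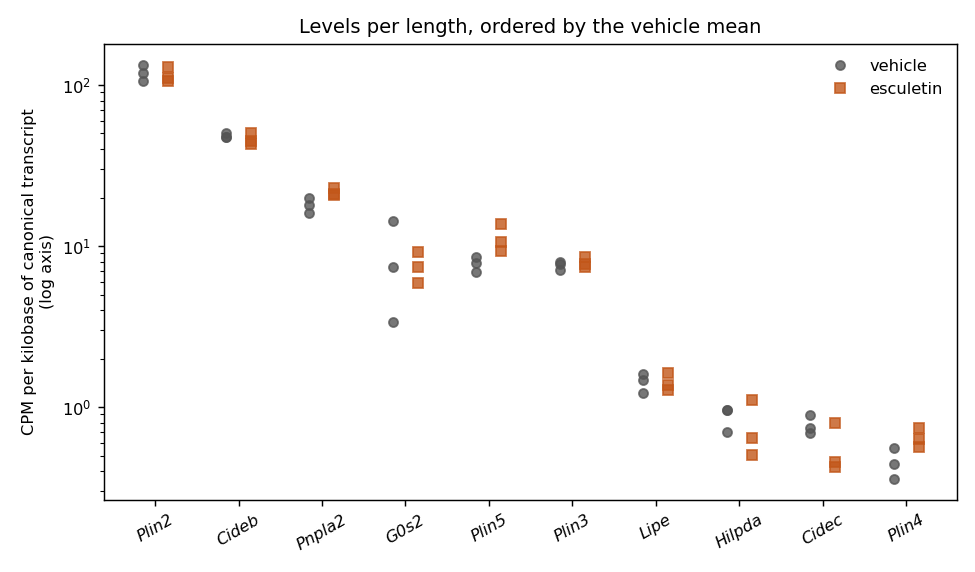
Level of each gene as CPM per kilobase of its canonical transcript (log axis) in the 3 vehicle (grey circles) and 3 esculetin (orange squares) libraries, ordered by the vehicle mean. Plin2, Cideb and Pnpla2 stand apart from each other and from the rest, and the lowest group is formed by Hilpda, Cidec and Plin4, all at about 1 CPM per kilobase or less in the vehicle libraries.

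The genes whose profile over the 6 libraries was nearest to that of a droplet gene were found by the mean absolute difference of centred log2 CPM, among 8972 genes, for the gene of highest level in each role. For Plin2 these were Slc1a2, Pitrm1 and Paox, with mean differences of 0.022, 0.024 and 0.031 on the log2 scale. For Cideb they were Ppp6r3 (0.017), Ggact (0.017) and Hp1bp3 (0.019), and for Pnpla2 they were Rnf169 (0.026), Ldhd (0.028) and Gne (0.039). For G0s2 the distances were larger, with D130043K22Rik at 0.16, Scd1 at 0.18 and Setd4 at 0.25. Scd1, the stearoyl-CoA desaturase gene, had a mean of 3262 CPM.

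Further genes of the pathway were taken from lists and are given by their counts. Of 15 other lipases and cofactors tested, 0 passed both thresholds of the study, where 3.13% of all genes did. An unadjusted p-value under 0.05 was reached by 2 as higher and 2 as lower, beside 6.53% and 5.32% of all genes. The median log2 fold change was -0.065 (all genes -0.0080). Abhd5, the activator of PNPLA2, had 23.8 ± 1.04 CPM with vehicle and 20.8 ± 2.30 CPM with esculetin (SD, n = 3 each, adjusted p = 0.497, edgeR's quasi-likelihood test). Mgll, which cleaves monoglyceride, had 144 and 137 CPM (adjusted p = 0.854), and Pnpla3, whose level follows feeding, had 0.893 and 0.390 CPM (adjusted p = 0.557, same test). Pnpla3 had 120 counts over all libraries, and its vehicle libraries were at 1.77, 0.798 and 0.109 CPM. The smallest p-values of the list belonged to Lpl and Lipc. Lpl, lipoprotein lipase, had 39.4 CPM with vehicle and 27.8 CPM with esculetin (log2 fold change -0.50, standard error 0.15, adjusted p = 0.246), and Lipc, hepatic lipase, had 163 and 194 CPM (log2 fold change 0.25, adjusted p = 0.293, same test). The remaining pair under 0.05, Abhd6 (0.20) and Ces3a (log2 fold change -0.22), was named after its values were seen.

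Of 21 tested genes of triglyceride synthesis and droplet assembly, 1 passed both thresholds of the study as higher and 0 as lower, where 1.37% and 1.76% of all genes did, and the median log2 fold change was 0.072. The gene was Fitm1, a protein of the endoplasmic reticulum that takes part in droplet formation, with 3.16 CPM in the vehicle and 5.15 CPM in the esculetin group (log2 fold change 0.70, standard error 0.24, adjusted p = 0.296, edgeR's quasi-likelihood test). Its paralog Fitm2 had 43.4, 39.0 and 39.9 CPM with vehicle and 51.3, 48.3 and 53.1 CPM with esculetin. These values did not overlap (log2 fold change 0.32, standard error 0.080, unadjusted p = 0.00265 and adjusted p = 0.196 by the same edgeR test). An unadjusted p-value under 0.05 was also found for Lpin2 (log2 fold change 0.51) and Gpat4 (0.37) as higher, and for Gpam (-0.37) and Soat1 (-0.38) as lower. The list thus had 4 genes under 0.05 as higher and 2 as lower, beside 6.53% and 5.32% of all genes. Lpin2, Gpat4, Gpam, Soat1 and Fitm2 were named after their values were seen. Dgat2, which makes triglyceride from diglyceride and was named after its value was seen, had 411 and 432 CPM (adjusted p = 0.822, same test).

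Of 14 other droplet surface genes tested, 0 passed both thresholds, where 3.13% of all genes did. An unadjusted p-value under 0.05 was reached by 1, Aup1, with a log2 fold change of 0.18, where 11.9% of all genes reached it. Tmt1a was next, with 327 CPM in the vehicle and 364 CPM in the esculetin group (adjusted p = 0.464, edgeR's quasi-likelihood test). The median log2 fold change of this list was 0.090. Among 15 regulators, 2 passed both thresholds, both higher, where 1.37% of all genes did. Cebpb had 30.3 CPM with vehicle and 45.8 CPM with esculetin (log2 fold change 0.60, standard error 0.14, adjusted p = 0.175), and Cebpd had 3.32 and 5.10 CPM (log2 fold change 0.62, standard error 0.26, adjusted p = 0.393, same test). Foxo1, named after its value was seen, also had an unadjusted p-value under 0.05, with a log2 fold change of 0.52. The level of Ppara was 101 CPM with vehicle and 98.4 CPM with esculetin, that of Pparg was 4.38 and 5.42 CPM, and that of Hif1a was 50.8 and 49.8 CPM, all with an adjusted p-value over 0.05.

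Other targets of PPAR alpha are given beside the droplet genes because both are known to answer to fatty acids. Of 16 tested, 2 passed both thresholds, both higher, where 1.37% of all genes passed as higher. A log2 fold change above 0 was found in 15, where 48.5% of all genes had one, and the median was 0.17, beside -0.0080 over all genes. Angptl4, a secreted inhibitor of lipoprotein lipase, had 60.0, 62.5 and 71.1 CPM with vehicle and 117, 96.7 and 158 CPM with esculetin. The groups were well apart (log2 fold change 0.94, standard error 0.16, unadjusted p = 0.000155 and adjusted p = 0.114 by edgeR's quasi-likelihood test). Vnn1, a pantetheinase, had 25.1 and 45.7 CPM (log2 fold change 0.86, standard error 0.25, adjusted p = 0.242, same test). Of 11 hypoxia targets tested, 0 passed both thresholds, where 3.13% of all genes did. Vegfa (log2 fold change -0.43) and Egln3 (-0.37) had an unadjusted p-value under 0.05 as lower, where 5.32% of all genes did. Bnip3 (0.39) and Ndrg1 (0.38) had one as higher, where 6.53% of all genes did. Egln3 and Ndrg1 were named after their values were seen. Of 12 genes that follow feeding and fasting, 3 passed both thresholds, Angptl4 as higher, and G6pc1 (log2 fold change -0.92, adjusted p = 0.204) and Sik1 (-1.52, adjusted p = 0.174, same test) as lower, where 3.13% of all genes passed in either direction. Whether the nutritional state at collection had a part in the levels of the droplet genes was not tested.

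Marker lists of other liver cells are given for the same libraries. Over all genes, 1.37% passed both thresholds as higher and 1.76% as lower. Of 8 Kupffer cell markers 0 passed both thresholds (sum 332 to 437 CPM with vehicle and 341 to 353 CPM with esculetin), and of 8 endothelial markers 0 did (245 to 296 and 257 to 295 CPM). Of 8 stellate cell markers 1 passed, Des, as higher, while 5 of the 8 had log2 fold changes below 0 (sum 354 to 417 and 322 to 437 CPM). Of 8 hepatocyte markers 0 passed. Of 5 bile duct markers tested 1 passed, Spp1, as lower, and the other 4 had log2 fold changes above 0. Most of the sum over this list (39.5 to 80.4 and 30.3 to 45.7 CPM) was Spp1. The groups overlapped in Spp1, with 34.7, 57.7 and 75.5 CPM with vehicle and 39.1, 23.7 and 37.3 CPM with esculetin. Of 8 blood cell markers tested 1 passed, S100a9, as higher (sum 129 to 157 and 115 to 183 CPM). Des, Spp1, S100a9 and Cfd were named after their values were seen.

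**Figure D5:**
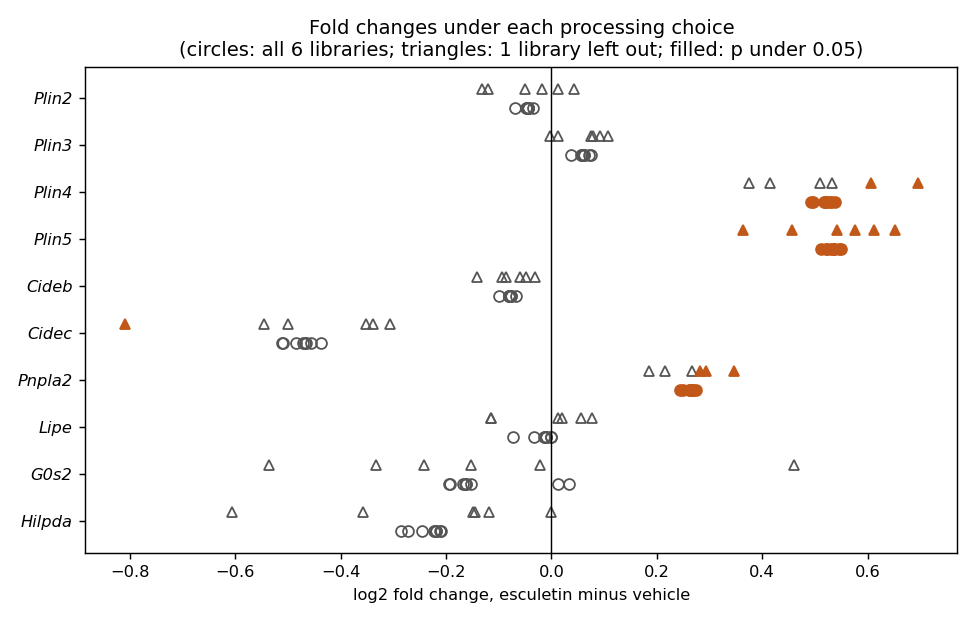
Log2 fold change (esculetin minus vehicle, x axis) of each gene in the 9 fits with all 6 libraries (circles) and the 6 fits that left out 1 library (triangles), filled in orange where the unadjusted p-value is under 0.05. Plin5 is filled in all 15 fits, Plin4 and Pnpla2 in all 9 fits with 6 libraries but not in every fit with 5, and G0s2 falls on both sides of 0.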

How the data were processed

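Liver RNA was sequenced as paired-end reads in 6 libraries, 3 per group, each from 2 mice, so that p-values measure the spread between pools. The authors aligned reads to GRCm39 with HISAT2 2.2.1 (the processing notes also list mm10) and deposited featureCounts counts per gene, which are whole numbers without normalization. The annotation release, strand setting and treatment of multi-mapping reads are not given in the sources used here. Groups and replicate numbers came from the sample names.

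Symbols, coordinates and exons came from GENCODE M39 (GRCm39), which held 54749 of 55357 gene identifiers. Genes were filtered with filterByExpr, normalized with TMM and tested with edgeR 4.0.16 (glmQLFit and glmQLFTest, R 4.3.3), a script checked on simulated data. Standard errors are the log2 fold change over the square root of F. Alternatives were DESeq2 1.42.0, limma-voom (limma 3.58.1), other normalizations and filters, leaving out single libraries, blocking on the replicate number, and thinning to the smallest total. No library was a copy of another (chi-square per gene of at least 26.6 within groups, about 1 from sampling alone). The genes and lists were chosen with earlier results of these data known. Named by rule were the 10 genes, up to 6 called genes per list, otherwise the 2 with the smallest p-values, a few fixed regulators and cofactors, and the 3 nearest profiles with at least 5 CPM on average, on log2(CPM + 0.5). The chromosome 17 window and the exon union length were chosen after seeing the data.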

Additional observations from a re-analysis of the deposited data

How the results depend on the processing

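The numbers of droplet genes past both thresholds of the study (0), with an unadjusted p-value under 0.05 (3) and with an adjusted one (0) were the same with DESeq2, limma-voom, DESeq2 size factors, total counts, at least 10 counts in every library and thinning, and the 3 genes were the same. Without the filter on low counts, 1 gene had an adjusted p-value under 0.05, Plin5. When 1 library was left out, between 0 and 2 genes passed both thresholds (Plin4 without vehicle replicate 1 or esculetin replicate 2, Plin5 without vehicle replicate 3, Plin5 and Cidec without esculetin replicate 3), unadjusted p-values under 0.05 were found for 1 to 3 genes, and adjusted ones for 0. Over all genes, these fits had 411 to 588 genes past both thresholds, 1246 to 1826 under 0.05 unadjusted and 2 to 45 adjusted, of 14753 to 14866 genes tested. The log2 fold change of G0s2 was 0.034 with limma-voom and 0.013 with the replicate block, against -0.16, and ranged from -0.54 to 0.46 over the fits with 5 libraries. Directions also turned for small changes when 1 library was left out, with ranges from -0.13 to 0.043 for Plin2, from -0.0025 to 0.11 for Plin3 and from -0.11 to 0.078 for Lipe. The cause was not tested. The log2 differences of the ratios lay between -0.83 and 0.37 (G0s2 to Pnpla2), -0.67 and -0.32 (Cidec to Cideb), and -0.77 and -0.35 (Plin2 to Plin5). With exon union lengths, chosen after seeing the data, the vehicle log2 ratio of Plin2 to Cideb was -0.36 in place of 1.29.

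The deviations of same-numbered libraries had correlations of -0.20, -0.069 and -0.014, and those of differently numbered libraries lay between -0.084 and 0.14. With 3 libraries per group, these values cannot decide whether the replicate numbers pair the libraries. With the replicate block, 0 droplet genes passed both thresholds, 3 reached an unadjusted p-value under 0.05 and 0 reached an adjusted one, where 399, 1504 and 15 of all 14433 genes did, against 452, 1711 and 6 without it. Hilpda and Cidec rest on at most 73 and 76 counts per library, and their log2 fold changes had standard errors of 0.33 and 0.29. That of G0s2, with 157 to 714 counts per library, was 0.40. The part of low counts in this precision was not tested.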
